A study of Mus musculus with 18 samples.

Results

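The genes described here code for 10 transcription factors of the GATA and Sox families. The GATA genes were Gata2, Gata3, Gata4, Gata5 and Gata6, and the Sox genes were Sox4, Sox5, Sox6, Sox9 and Sox17. They were chosen by name from 21938 protein-coding genes of the mouse annotation GENCODE vM21 (genome build mm10, GRCm38). The choice was made with earlier results of these data known. Each gene was taken with its body and 100 kb on both sides, and this window was compared with 6 lists of called regions from mouse liver.

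The study mapped lamin B1, a protein of the nuclear lamina, the heterochromatin mark H3K9me3 (trimethylated lysine 9 of histone H3) and the forkhead factor Foxa2 by chromatin immunoprecipitation and sequencing (ChIP-Seq). Lamin B1 and H3K9me3 were mapped in livers of wild-type male C57BL/6 mice aged 3 months (young) or 21 months (old), with 2 replicates for each antibody and age. Foxa2 was mapped at 12 weeks in livers of male Zmpste24 null mutants (Zmpste24 KO) and of their wild-type control littermates, with 3 replicates per genotype. Zmpste24 is the protease that matures prelamin A, and the mutants lack it in every tissue. The replicates had been merged before calling, so each condition was 1 list of positions, with no height, no depth and no spread between animals. For this reason no test was possible, and counts of genes are given beside the share of all protein-coding genes that met the same rule. Chromatin came from whole liver, in which fewer cells of a type and less signal per cell cannot be told apart. Old lamin B1 and H3K9me3 were measured in wild-type mice and Foxa2 in younger animals, so an overlap of a Foxa2 site with an old domain joins different mice. H3K9me2, also profiled, was not analysed here.

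GATA factors are zinc finger proteins that bind the word AGATAA, and Sox factors bind short A/T-rich words through an HMG box. Like the Foxa proteins, GATA factors can bind DNA that is wrapped in nucleosomes (pioneer factors), and some Sox factors share this property. In the liver Gata4 and Gata6 act in formation of the liver bud, Gata4 is kept in sinusoidal endothelial and stellate cells, Sox9 marks bile duct cells, and Sox17 acts in early endoderm, biliary progenitors and endothelium.

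The 6 lists differed in size. Lamin B1 domains numbered 1624 in young and 1519 in old livers, but their median length was 200 kb in the young list and 340 kb in the old list, and they covered 466 Mb and 930 Mb of the genome. H3K9me3 regions numbered 2784 in young and 2496 in old livers and covered 576 Mb and 617 Mb. The H3K9me3 lists could be tied to an age by their names alone, and the study counts other numbers of H3K9me3 regions, so these lists are not the set described there. The sequencing depth of the merged libraries also differed between the ages, with more reads in old than in young livers for H3K9me3 and fewer for lamin B1, and its part in the differences between lists was not tested. Foxa2 sites numbered 4960 in wild-type and 8177 in mutant livers. Of 12 genes typical of liver, 11 had a Foxa2 site in their window in each genotype, with 33 sites in wild type and 32 in the mutants. The gene without a site was Tdo2 in wild type and G6pc in the mutants. Of 6 genes of other tissues, 1 had a site in wild type and 2 in the mutants. Of all protein-coding genes, 44.0% had a site in wild type and 54.7% in the mutants. The lists hold no value by which the loss of Zmpste24 itself could be checked.

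Near the 10 genes, 10 Foxa2 sites were called in wild-type and 19 in Zmpste24 mutant livers, and 3 of them were called in both genotypes. Sequence of the plus strand of GRCm38 is shown for the 3 sites called in both genotypes, for the Sox5 site nearest its start site, and for the mutant sites nearest the start sites of Gata3 and Gata4. Each run holds up to 300 bases around the centre of the site. Capitals mark the forkhead word TGTTTAC (or GTAAACA on the other strand), and the Sox word CCTTTGT (or ACAAAGG), where they occur. No GATA word (AGATAA or TTATCT) was present in these runs, and 3 of them held none of the words. Over their full width, the Gata3 site and the wild-type calls of both shared Sox5 sites did hold a GATA word.
Sox6, both genotypes, intron, chr7:115531912-115532211: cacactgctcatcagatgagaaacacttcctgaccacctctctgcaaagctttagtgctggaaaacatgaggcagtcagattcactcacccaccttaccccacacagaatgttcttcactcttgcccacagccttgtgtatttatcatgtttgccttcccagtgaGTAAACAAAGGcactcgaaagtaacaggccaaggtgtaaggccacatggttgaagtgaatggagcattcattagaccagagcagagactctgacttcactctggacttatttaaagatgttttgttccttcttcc
Sox5, both genotypes, intron, chr6:144503938-144504232: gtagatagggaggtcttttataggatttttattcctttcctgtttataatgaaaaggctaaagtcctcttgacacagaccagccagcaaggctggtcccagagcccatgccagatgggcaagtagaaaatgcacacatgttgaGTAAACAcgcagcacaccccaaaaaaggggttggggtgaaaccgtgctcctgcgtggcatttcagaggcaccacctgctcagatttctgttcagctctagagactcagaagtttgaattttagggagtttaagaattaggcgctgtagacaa
Sox5, both genotypes, intron, chr6:144201693-144201992: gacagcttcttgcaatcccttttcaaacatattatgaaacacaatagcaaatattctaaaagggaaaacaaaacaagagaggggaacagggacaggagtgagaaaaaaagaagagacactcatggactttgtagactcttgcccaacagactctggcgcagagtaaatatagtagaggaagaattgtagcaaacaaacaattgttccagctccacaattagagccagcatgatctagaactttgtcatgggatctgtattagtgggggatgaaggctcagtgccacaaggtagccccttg
Sox5, Zmpste24 KO, intron, chr6:144754766-144755065: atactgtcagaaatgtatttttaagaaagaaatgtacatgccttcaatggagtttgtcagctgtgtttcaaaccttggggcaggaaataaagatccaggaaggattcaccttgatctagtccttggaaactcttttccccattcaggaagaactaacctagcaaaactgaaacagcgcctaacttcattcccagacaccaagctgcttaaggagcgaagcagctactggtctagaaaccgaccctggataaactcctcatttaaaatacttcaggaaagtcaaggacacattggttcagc
Gata4, Zmpste24 KO, intron, chr14:63205707-63206006: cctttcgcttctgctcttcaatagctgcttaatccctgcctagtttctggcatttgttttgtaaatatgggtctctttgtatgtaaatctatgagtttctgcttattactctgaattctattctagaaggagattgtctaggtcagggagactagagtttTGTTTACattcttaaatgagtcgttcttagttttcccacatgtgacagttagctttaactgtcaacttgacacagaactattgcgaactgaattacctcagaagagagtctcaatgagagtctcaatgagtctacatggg
Gata3, Zmpste24 KO, intergenic, chr2:9833720-9834019: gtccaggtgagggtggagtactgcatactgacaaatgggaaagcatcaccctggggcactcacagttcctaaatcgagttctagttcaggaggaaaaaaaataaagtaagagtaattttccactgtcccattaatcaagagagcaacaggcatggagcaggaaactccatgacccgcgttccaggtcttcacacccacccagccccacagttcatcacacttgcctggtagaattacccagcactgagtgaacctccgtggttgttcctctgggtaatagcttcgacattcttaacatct
In the Sox6 site the forkhead word and the Sox word overlapped in the run GTAAACAAAGG. On either strand this run was present in 12 of 4956 wild-type sites (0.242%) and in 9 of 8177 mutant sites (0.11%), counted over whole sites outside the mitochondrial genome.

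The windows of the GATA and Sox genes were largely free of lamin B1 in young livers and largely covered in old livers. All 10 windows held some lamin B1 in old livers (71.0% of all protein-coding genes) and 3 did in young livers (49.0%). On average 21.3% of a window lay in a lamin B1 domain in young and 86.6% in old livers, while the means over all protein-coding genes were 34.0% and 60.5%. A gain, defined as at least 10 percentage points more of the window covered in old livers, was found for 8 of 10 genes, 4 of 5 GATA genes and 4 of 5 Sox genes, and for 46.5% of all protein-coding genes. A loss of the same size was found for 0 of 10 genes and for 9.5% of all genes. The median difference between the ages was 95.6 points for the 10 genes and 2.65 points for all genes. The domains of old livers covered more of the genome than those of young livers, and the part of this in the gain of single genes was not tested. The 10 genes were chosen with earlier results of these data known, so their difference from all genes is a description only.

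Of the GATA genes, Gata2, Gata3, Gata4 and Gata5 had the same lamin B1 values. Their windows were covered 0% in young and 100% in old livers. Sox4 showed the same values, so that 5 of 10 genes went from no coverage to the whole window, compared with 14.3% of all protein-coding genes. The GATA genes differed in the distance from which lamin B1 was absent in young livers. From the start site of Gata2, needed in blood stem cells and in endothelium, the nearest young domain lay 254 kb away. From Gata4, a factor of heart and liver formation, it lay 208 kb away. From Gata5, which acts in heart and gut endoderm, it lay 225 kb away. Near Gata3, a T cell factor, the nearest young domain was 1250 kb from the start site, and near Sox4, a factor of progenitor cells and lymphocytes, it was 1196 kb away.

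The fifth GATA gene, Gata6, a factor of endoderm and of the early liver, was within lamin B1 at both ages. Its window was covered 84.7% in young and 84.7% in old livers, by a domain that measured 440 kb in young livers and 380 kb in old livers and kept its downstream end. Sox17 showed the same pattern, with 61.7% at both ages and with a domain that began at the same base and measured 230 kb in young livers and 150 kb in old livers. For both genes the domain was shorter in old livers, but the part missing in old livers lay outside the window. Equal coverage means that the same positions were called, and the strength of lamin B1 binding within a domain, which could differ between the ages, is not in the lists. The study shows a stretch upstream of the Gata6 start site, within this window, as an example of lower lamin B1 and H3K9me3 in old livers. Gata6 and Sox17 were the 2 genes without a gain.

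The remaining Sox genes lay between these groups. The window of Sox9 was covered 67.0% in young and 100% in old livers, and its start site lay within lamin B1 at both ages. Sox5 and Sox6, which form the SoxD group and act with Sox9 in cartilage, are the long genes of the list, with 954 kb and 568 kb. The window of Sox5 was covered 0% in young and 91.2% in old livers, and the gene body itself 99.8% in old livers. The window of Sox6 was covered 0% in young and 28.4% in old livers, by domains at both ends that left the middle free. Of the Sox6 gene body 13.9% was covered, and its start site was 61.2 kb from the nearest old domain.

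**Figure D1:**
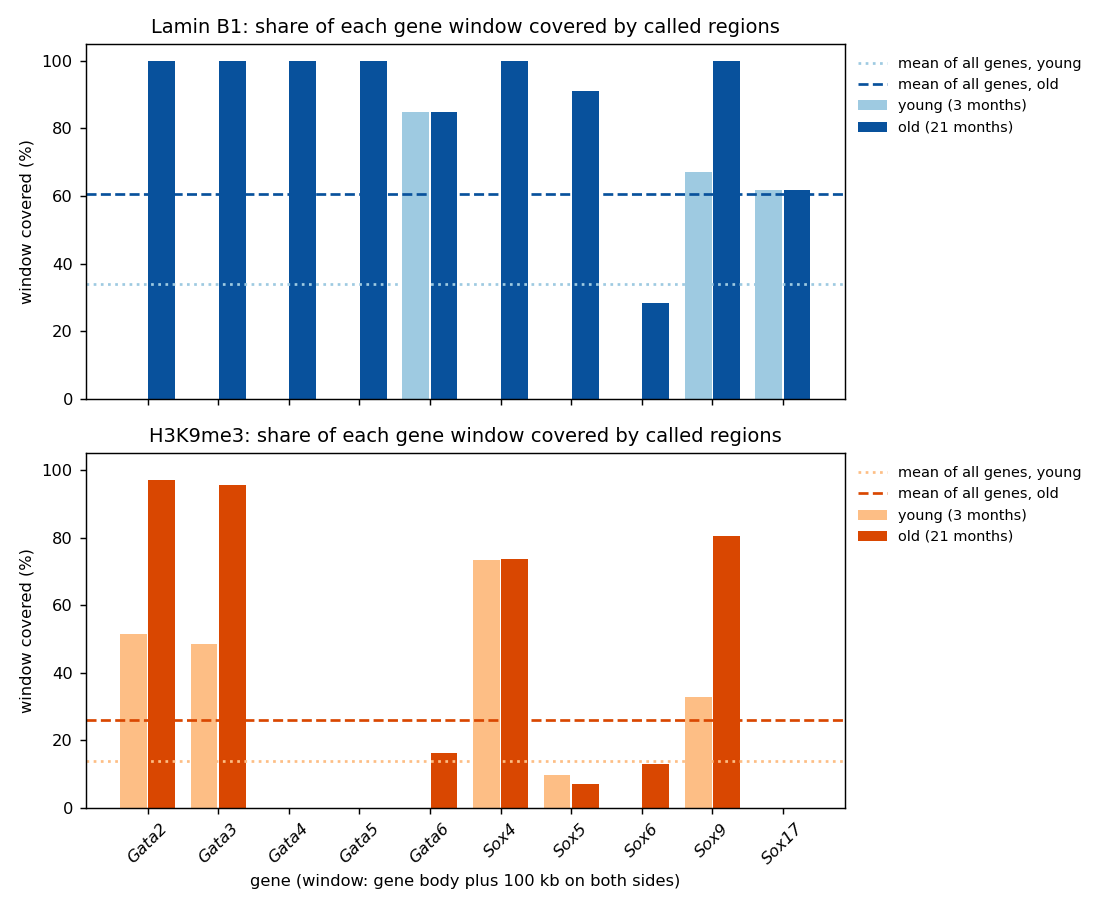
Share of each gene window (gene body plus 100 kb on both sides, in percent) covered by called lamin B1 domains (top) and H3K9me3 regions (bottom) in young and old livers, with 1 bar per merged list and no error bar, and with the mean over 21938 protein-coding genes as lines. For lamin B1 the young bars are absent for 7 of 10 genes and the old bars reach 100% for Gata2, Gata3, Gata4, Gata5, Sox4 and Sox9, whereas H3K9me3 is absent at both ages for Gata4, Gata5 and Sox17.

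At the start sites, 9 of 10 genes were within lamin B1 in old livers (62.3% of all protein-coding genes) and 3 of 10 in young livers (36.0%). The start sites of Gata2, Gata3, Gata4, Gata5, Sox4 and Sox5 were within lamin B1 in old livers only, a state found for 30.5% of all genes. Those of Gata6, Sox9 and Sox17 were within it at both ages (31.8%). The start site of Sox6 was outside at both ages, and none was within lamin B1 in young livers only (4.26%). For the genes with several annotated transcripts, all starts of a gene had the same lamin B1 state.

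The old domains that held these 9 start sites ranged from 150 kb to 3350 kb, with a median of 1370 kb. The domains that held any protein-coding start site in old livers had a median of 1170 kb over 13664 starts, so the size of the domains near GATA and Sox genes was not far from that of other genes. The domain at Gata2, chr6:85820001-89170000, was 3350 kb long with 57 protein-coding start sites, and 31.9% of its length was covered in young livers, by 2 domains. The domain at Gata5, chr2:178410001-181510000, spanned 3100 kb with 49 start sites, and 17.1% of its length was covered in young livers. In these gene-dense domains the GATA gene was 1 of many genes included.

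In contrast, the domains at Gata3, Sox4 and Sox5 contained no young domain. The domain at Gata3, chr2:9570001-10440000, was 870 kb long with 9 start sites. The domain at Sox4, chr13:28420001-29230000, was 810 kb long and Sox4 was the 1 protein-coding gene that started in it. The domain at Sox5, chr6:143830001-145200000, was 1370 kb long with 3 start sites and began within Sox5, near the 3′ end of the gene. The domain at Gata4, chr14:62760001-64460000, was 1700 kb long, had 24 start sites and was 5.29% covered in young livers. It also held the start site of another Sox gene, Sox7, 672 kb from that of Gata4. The old domain at Sox9, chr11:112470001-115000000, was 2530 kb long, of which 32.4% was covered in young livers.

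**Figure D2:**
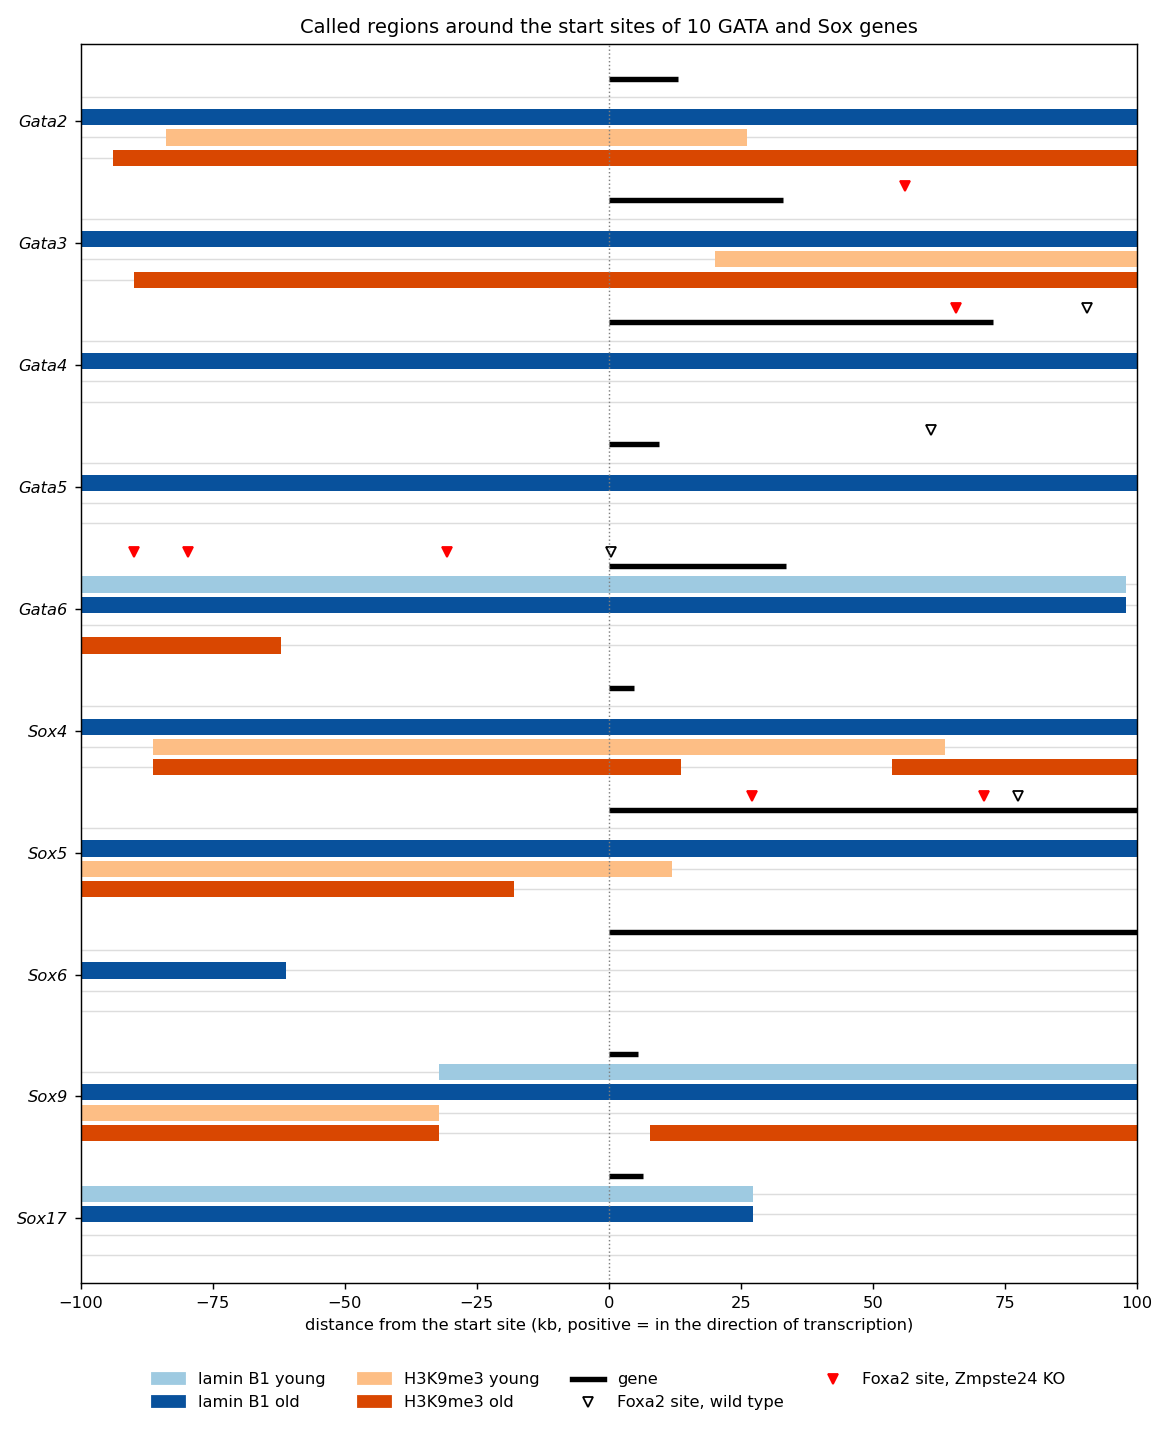
Called regions within 100 kb of the start site of each gene, drawn in the direction of transcription (x axis, kb), with bars for both chromatin marks at each age, a black line for the gene, and triangles for Foxa2 sites of both genotypes. Old lamin B1 spans the start site of 9 genes, all but Sox6, young lamin B1 spans that of Gata6, Sox9 and Sox17, and the 1 Foxa2 site within 10 kb of a start is the wild-type site at Gata6.

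H3K9me3 was less uniform over these genes than lamin B1. Some H3K9me3 was present in 5 of 10 windows in young livers (32.5% of all protein-coding genes) and in 7 in old livers (49.6%). The mean share of a window covered was 21.6% in young and 38.4% in old livers, compared with 14.0% and 26.1% over all protein-coding genes. A gain of at least 10 points was found for 5 of 10 genes, Gata2, Gata3, Gata6, Sox6 and Sox9, and for 34.6% of all genes. A loss was found for 0 of 10 genes and for 13.1% of all genes. The median difference was 6.78 points for the 10 genes and 0 points for all genes. By their H3K9me3 the genes formed groups with a large gain, with a small gain at a distance, with H3K9me3 at both ages, and with none.

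The large gains were at Gata2, Gata3 and Sox9. The window of Gata2 was covered 51.6% in young and 97.1% in old livers. Its start site and gene body were within H3K9me3 at both ages, and the region grew on the downstream side, from chr6:88110001-88220000 in young to chr6:88100001-88410000 in old livers. The window of Gata3 was covered 48.5% in young and 95.7% in old livers. In young livers the region chr2:9530001-9870000 ended within the gene, which is on the minus strand, and covered 39.2% of it. The old region, chr2:9580001-9980000, covered the whole gene and 90.0% of the upstream flank, where the young coverage was 0%. Gata3 was thereby the 1 gene with a start site in H3K9me3 in old livers only, a state of 17.3% of all genes.

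At Sox9 the gain was around the gene but not on it. The window was covered 33.0% in young and 80.5% in old livers. Old regions, chr11:112300001-112750000 and chr11:112790001-113100000, flanked the gene at chr11:112782224-112787760, and the coverage of the gene body was 0% at both ages. The upstream flank was covered 67.8% at both ages and the downstream flank 0% in young and 97.8% in old livers. Lamin B1 had no such gap, and covered the whole gene body at both ages.

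At Gata6 and Sox6 H3K9me3 regions were called in old livers only, away from the start. Coverage of 0% means that no region was called, and the strength of the H3K9me3 signal is not in the lists. The window of Gata6 was covered 0% in young and 16.2% in old livers, by the region chr18:10850001-10990000, which ended 62.1 kb upstream of the start site. The window of Sox6 was covered 0% in young and 13.0% in old livers, by chr7:115410001-115510000 at the far end of the gene. The nearest old region to the Sox6 start site was 441 kb away. The value for Gata6 depended on the window, since the old minus young difference was 0 points with 50 kb on both sides, 31.8 with 200 kb and 0 with 500 kb. For Sox6 it was 13.3, 10.3 and 10.1 points with these flanks, and 0 with 100 kb around the start site alone.

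Sox4 and Sox5 had H3K9me3 at both ages, with little difference over windows with 100 kb on both sides. The window of Sox4 was covered 73.2% in young and 73.8% in old livers, and its start site was within H3K9me3 at both ages. However, the young region chr13:28890001-29040000 stood against 2 separate regions in old livers, chr13:28820001-28900000 and chr13:28940001-29040000. The value for Sox4 depended on the window, since the old minus young difference was -38.2 points with 50 kb on both sides, -28.4 with 200 kb and -45.8 with 500 kb. Over the whole old lamin B1 domain of Sox4 it was lower in old livers as well, with 84.0% covered by H3K9me3 in young and 27.2% in old livers. The window of Sox5 was covered 9.71% in young and 7.11% in old livers. Its start site was within the young region chr6:144770001-144950000 and was 18 kb from the old region chr6:144800001-145200000. Sox5 was the 1 gene with a start site in H3K9me3 in young livers only, a state of 5.87% of all genes. Of its 12 annotated transcript starts 2 were in the young region.

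Gata4, Gata5 and Sox17 had no H3K9me3 in the window at either age, 3 of 10 genes compared with 41.2% of all protein-coding genes. From the Gata4 start site the nearest region was 222 kb away in young livers and 298 kb away in old livers, and from that of Sox17 it was 383 kb and 363 kb away at these ages. From the Gata5 start site it was 665 kb away in young livers and 115 kb away in old livers, just outside the window. The start sites of 3 genes were within H3K9me3 in young livers (12.9% of all genes) and of 3 genes in old livers (24.4%). Gata2 and Sox4 were in both sets (7.07%). Both marks together covered the start sites of Gata2, Gata3 and Sox4 in old livers, 3 of 10 genes compared with 20.9% of all genes.

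Divided into windows of 10 kb, the unit in which the domains were called, the 10 genes with their flanks made up 380 windows. Of these 255 (67.1%) were within lamin B1 in old livers only, compared with 24.3% of the windows of chromosomes 1 to 19. Within lamin B1 at both ages were 47 windows (12.4%, genome 13.5%), and outside at both ages 78 (20.5%, genome 56.8%). Windows with lamin B1 in young livers only were absent from these genes. That state was uncommon among genes in general, with 4.26% of all protein-coding start sites in it. Among the windows with lamin B1 in old livers only, 162 (42.6% of the 380, genome 11.1%) had no H3K9me3 at either age, 50 (13.2%, genome 4.02%) had it at both ages, 36 (9.47%, genome 8.42%) in old livers only and 7 (1.84%, genome 0.724%) in young livers only. These shares leaned on Sox5, the longest gene. Without it, an alternative chosen after seeing the data, 149 of 263 windows (56.7%) were within lamin B1 in old livers only, and 68 (25.9%) of the 263 were so without H3K9me3 at either age. Neighbouring windows of a domain are not independent. The genome shares are also not those of genes, around which more lamin B1 was called. Old lamin B1 covered 34.1% of the genome but on average 60.5% of a protein-coding gene window. For young lamin B1 these values were 17.1% and 34.0%.

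Foxa2 sites near the GATA and Sox genes were more numerous in the mutants, with 10 sites in wild type and 19 in Zmpste24 KO. Without Sox5, which held more than any other of the genes, there were 5 and 8. More sites in the mutants were found for 4 of 10 genes, Gata3, Gata4, Gata6 and Sox5, and for 33.7% of all protein-coding genes. Fewer were found for 1 gene, Gata5, and for 19.6% of all genes. The mutant list was also longer as a whole, and when sites were counted as a share of their own list, 3 genes (Gata3, Gata6 and Sox5) had more in the mutants and 3 had fewer, with Gata4 turning from more to fewer. By that measure 31.6% of all protein-coding genes had more and 34.8% fewer, so the counts for these genes were near the share of all genes. At least 1 site was called near 5 genes in wild type (44.0% of all genes) and near 5 genes in the mutants (54.7%). In either genotype 6 genes had a site (66.4%), and Gata2, Sox4, Sox9 and Sox17 had no site in either genotype.

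Sox5 held 5 of the 10 sites in wild type and 11 of the 19 in mutant livers, and all of them lay in its introns. Because the Sox5 window spans 1154 kb, sites were also compared per length. Sox5 had 0.433 sites per 100 kb in wild type and 0.954 in mutants, while the genome as a whole had 0.182 and 0.300. As dense or denser in sites were 33.8% of protein-coding genes in wild type and 12.6% in the mutants. In both genotypes 2 of the sites were called, 278 kb and 580 kb downstream of the start site. The other 3 wild-type sites lay 77.4 kb, 305 kb and 587 kb from it. The mutant sites were spread from 27.1 kb to 742 kb, and the nearest to the start was called in the mutants only. Sox6, of the same SoxD group, had 1 site in each genotype, the shared intronic site 507 kb from its start shown above.

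**Figure D3:**
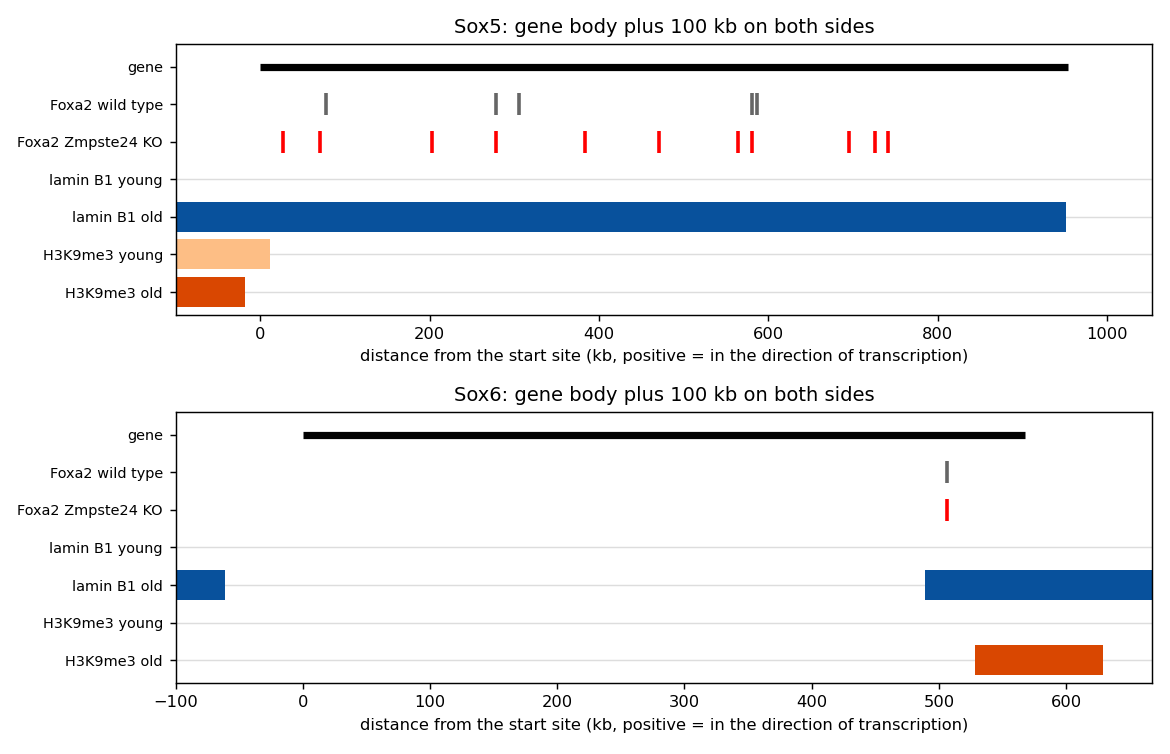
Foxa2 sites (ticks, both genotypes) and called lamin B1 and H3K9me3 regions (bars, young and old) along Sox5 (top) and Sox6 (bottom) with 100 kb on both sides, with the distance from the start site on the x axis (kb). Sox5 shows 5 wild-type and 11 mutant ticks, all under old lamin B1, and Sox6 shows a tick of each genotype at 507 kb within the old domain at the end of the gene.

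Near Gata4 there were 2 sites in wild type and 3 in mutants, with none in common. The wild-type sites were in an exon of the neighbouring gene Fdft1, which codes for squalene synthase, and between the genes, 109 kb and 90.5 kb downstream of the Gata4 start. The mutant sites lay 154 kb, 107 kb and 65.8 kb downstream, and the last of them, chr14:63205360-63206353, was within an intron of Gata4 itself. The mutant density of 1.10 sites per 100 kb was reached by 8.03% of protein-coding genes, and the wild-type density of 0.733 by 15.4%. The mutant minus wild-type difference was 1 site with 200 kb on both sides and 0 with 50 kb or 500 kb. It was also 0 with 100 kb around the start site alone and with sites wider than the list median alone. The sites of the genotypes at Fdft1, chr14:63162517-63163806 in wild type and chr14:63164140-63164474 in the mutants, were neighbours that did not overlap.

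Gata6 had 1 site in wild type and 3 in mutants. The wild-type site, chr18:11052159-11052725, began 95 bp downstream of the start site, within an exon of Gata6, and was absent from the mutant list. It was the 1 site of either genotype within 10 kb of a start site of these genes. The mutant sites lay 89.8 kb, 79.6 kb and 30.6 kb upstream, and the first 2 of these were within the H3K9me3 region present in old livers only. The mutant density, 1.28 sites per 100 kb, was reached by 6.66% of protein-coding genes, and the wild-type density, 0.428, by 34.4%. The mutant minus wild-type difference depended on the setting. It was 0 sites with 50 kb on both sides, 2 with 200 kb, 3 with 500 kb, and 1 with sites wider than the list median alone. No other protein-coding gene was in the window with 100 kb on both sides.

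Near Gata3 there was no site in wild type and 1 in the mutants, chr2:9833329-9834409, 56.2 kb downstream of the start, in H3K9me3 at both ages and in lamin B1 in old livers. Near Gata5 there was 1 site in wild type, in an exon of Cables2 and 61.1 kb from the Gata5 start, and none in the mutants. For Sox17, whose window held no site, the nearest site of both genotypes lay 164 kb from the start. The nearest sites to Sox9 were 200 kb (wild type) and 156 kb (mutants) away.

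**Figure D4:**
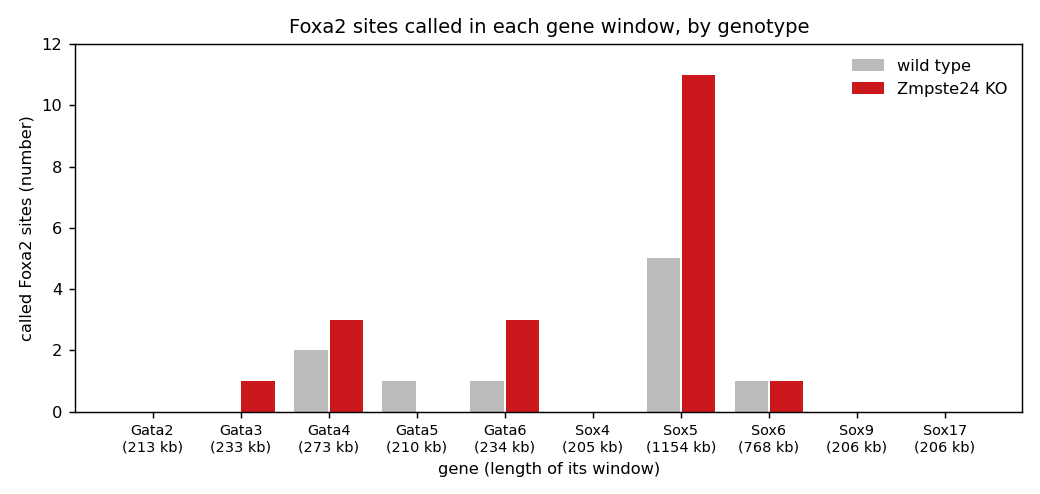
Number of called Foxa2 sites in each gene window in wild-type and Zmpste24 KO livers, with 1 bar per merged list, no error bar, and the length of the window under each name. Sox5, with the longest window, has 5 and 11 sites, and Gata2, Sox4, Sox9 and Sox17 have none in either genotype.

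Within lamin B1 of old livers were 10 of 10 wild-type and 19 of 19 mutant sites near GATA and Sox genes, and 63.5% and 49.2% of all sites of the lists. This was largely set by the windows, since those of Gata3, Gata4 and Gata5 were fully covered in old livers and the body of Sox5 almost fully. Within lamin B1 of young livers were 1 wild-type site and 3 mutant sites, all at Gata6 (10% and 15.8%, against 35.5% and 28.0% of the lists). All 10 windows held lamin B1 in old livers and 7 held none in young livers, so that young lamin B1 was present at 3 of the genes, Gata6, Sox9 and Sox17. Sox9 and Sox17 had no Foxa2 site, so the shares in young lamin B1 rest on Gata6 alone. Within H3K9me3 of old livers were 0 wild-type sites and 3 mutant sites (15.8%), against 22.9% and 22.4% of the lists. The share of sites called in the other genotype was 30.0% for wild-type and 15.8% for mutant sites near these genes, close to the 27.2% and 16.7% of the whole lists.

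The words of the 3 factor families were then counted in these sites over their full width. The forkhead word was present in 3 of 10 wild-type sites (30.0%, Wilson interval at 95% from 10.8% to 60.3%) and in 9 of 19 mutant sites (47.4%, 27.3% to 68.3%). It was present in 27.7% of all wild-type and 23.4% of all mutant sites. The GATA word was present in 3 wild-type sites (30.0%) and in 2 mutant sites (10.5%, interval 2.94% to 31.4%), against 41.7% and 46.4% of the lists. A Sox word, CCATTGT or CCTTTGT, was present in 4 wild-type sites (40.0%, 16.8% to 68.7%) and in 4 mutant sites (21.1%, 8.51% to 43.3%), against 29.5% and 29.3%. The GATA word is shorter than the others and the Sox words were pooled, so the shares are not comparable between the families.

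The intervals cover counting error only and treat the sites as independent, although 11 of the 19 mutant sites lie in Sox5, and the sites differ in width, with median widths near these genes of 755 bp (wild type) and 650 bp (mutants) and in the lists of 941 bp and 889 bp. Within 300 bases of the centre, which removes the difference in width, the forkhead word was present in 8 of 19 mutant sites (42.1%, list 11.1%), and the GATA word in 1 of 19 (5.26%, list 20%). A Sox word was present there in 2 of 19 (10.5%, list 10.7%). Of 10 wild-type sites, 2 held the forkhead word there (20%, list 14.0%), 1 the GATA word (10%, list 17.4%) and 2 a Sox word (20%, list 10.6%). Of the 8 mutant sites outside Sox5, the forkhead word was present in 4 (50%) and the GATA word in 1 (12.5%). A Sox word was present in 3 of these 8 (37.5%), above the list share of 29.3%, whereas with Sox5 it was below. All 3 wild-type sites with the GATA word were in Sox5. The differences from the lists were not tested.

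**Figure D5:**
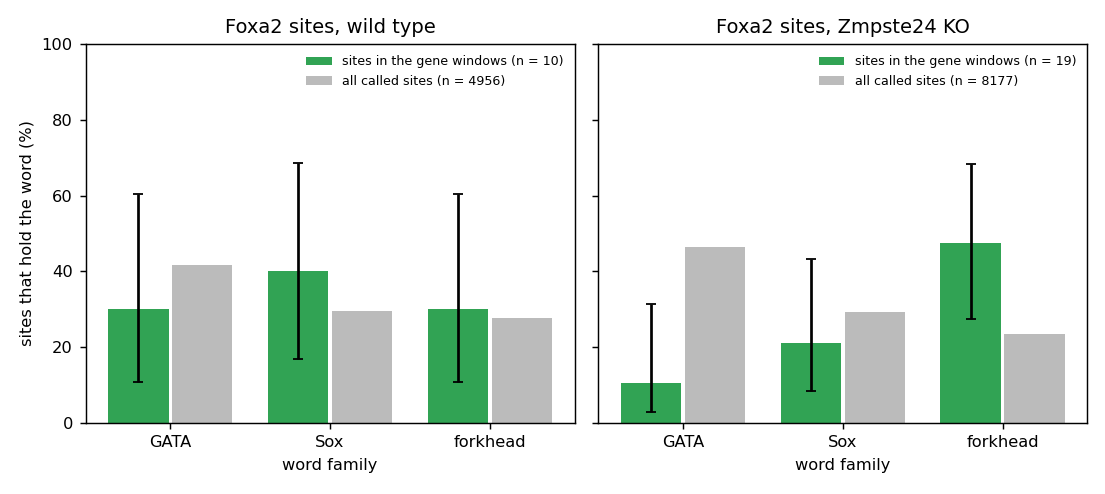
Share of Foxa2 sites (percent) that hold a GATA, Sox or forkhead word in wild type (left) and Zmpste24 KO (right), for the sites in the gene windows (green, with Wilson intervals at 95% as error bars) and for all called sites outside the mitochondrial genome (grey). For the mutants the green bar is 47.4% for the forkhead word and 10.5% for the GATA word, where the grey bars are 23.4% and 46.4%.

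The other 15 genes of both families were examined in the same manner. A lamin B1 gain was found for 7 of them (46.5% of all protein-coding genes) and a loss for 0 (9.5%), so that their share with a gain was that of genes in general. An H3K9me3 gain was found for 8 (34.6%) and a loss for 1, Sox21 (13.1%). More Foxa2 sites in the mutants were found for 5 (33.7%), again near the share of all genes, and fewer for 0 (19.6%). Sox1 and Sox8, factors of the nervous system and neural crest, had 0% of the window in both marks in young and 100% in both in old livers. Sox7, in the old domain of Gata4, had the lamin B1 values of that gene, 0% and 100%, and likewise no H3K9me3. Sox10, a neural crest factor, was within lamin B1 at both ages (100%), and its H3K9me3 coverage was 0% in young and 100% in old livers. At Sox11, of the same group as Sox4, H3K9me3 coverage was 63.6% in young and 100% in old livers with no lamin B1 at either age. Gata1 and Sox3 are on the X chromosome, where 2 young and 1 old lamin B1 domains were called in all, and nothing was called in their windows. Both were kept in the 15 genes and count among the 8 without a lamin B1 gain, although almost nothing was called on that chromosome. Genes of the X chromosome also count among all protein-coding genes.

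Of 10 genes for partners of GATA factors, a lamin B1 gain was found for 6 (46.5% of all protein-coding genes) and a loss for 1 (9.5%). An H3K9me3 gain was found for 5 (34.6%) and a loss for 1 (13.1%), and more Foxa2 sites in the mutants for 6 (33.7%) and fewer for 0 (19.6%). Zfpm1, which codes for the GATA cofactor FOG1, had lamin B1 over 0% of its window in young and 100% in old livers. Nkx2-5, a heart factor that binds Gata4, had the same lamin B1 values, with 0 Foxa2 sites in wild type and 3 in mutants. Lyl1, a basic helix-loop-helix factor of blood cells, was within lamin B1 at both ages (100%) and had 1 site in wild type and 5 in mutants. Hand2, another heart factor, accounted for the loss in both marks, with lamin B1 over 75.9% in young and 31.7% in old livers and H3K9me3 over 100% and 61.2%.

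Genes on other chromosomes or over 1 Mb away with the most similar coverage in the 4 lamin B1 and H3K9me3 lists were sought for the 3 genes with the largest summed coverage, Sox9, Gata2 and Sox4. For Gata2 these were Zfp503, Rflna and Acvrl1, with mean absolute differences over the 4 lists of 0.0285, 0.243 and 0.765 percentage points. For Sox4 they were Lrrc8b, Socs5 and Bdh1, with 0.284, 0.293 and 1.06 points. For Sox9, with coverage in all 4 lists, the nearest were Grwd1, Sbk3 and Kcnj14, with 1.23, 2.05 and 2.32 points. The coverage pattern of each of these 3 genes was thus found elsewhere in the genome as well.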

How the data were processed

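Chromatin from whole mouse liver was immunoprecipitated and sequenced by the authors. Per the methods, reads were aligned to mm10 with BWA, duplicates were removed with Picard, and uniquely aligned reads of 2 (lamin B1, H3K9me3) or 3 (Foxa2) replicates were merged. Reads of the mutants were downsampled to the number in wild type. Epic was used for lamin B1 domains and PeakSeq for Foxa2 sites, with input mixed from young and old wild-type livers as the control. The caller of the H3K9me3 regions is not given in the methods, and per the labels the processing tools were BWA and SICER. The deposited lists hold genome positions only, with no score, signal or count, so the depth behind a region cannot be read from them. The 2 H3K9me3 lists were matched to an age by their names.

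Regions were placed on GRCm38 with the first base as 1. Lamin B1 and H3K9me3 regions lie on windows of 10 kb, and Foxa2 sites were read as BED intervals. For 21938 protein-coding genes of GENCODE vM21 the share of the window (gene body plus 100 kb on both sides) in called regions and the number of sites overlapping it by at least 1 bp were computed. A gain or loss is a difference of at least 10 percentage points, and for Foxa2 of at least 1 site. Start sites are the 5′ ends of the gene records. Words were searched on both strands of GRCm38.p6 (RefSeq), with GATA as AGATAA, Sox as CCATTGT or CCTTTGT and forkhead as TGTTTAC, and 4 wild-type sites on the mitochondrial genome were left out. No test was made, since each condition is 1 merged list.

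The members and the lists of relatives were chosen with earlier results of these data known. All 10 members are named. Of the relatives, those with a gain or loss in lamin B1 or H3K9me3, or with a difference of at least 2 sites, could be named, up to 12, and Gata1 and Sox3 were named in addition for their place on the X chromosome. Sequences were shown for sites called in both genotypes or nearest a start site, except for sites in untranslated regions or on chromosome 18. The code was tested on simulated data. The computations used Python 3.11.15, numpy 2.4.6, pandas 2.3.3, scipy 1.17.1, matplotlib 3.10.9, pysam 0.24.0 and samtools 1.23.1.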

Additional observations from a re-analysis of the deposited data

How the results depend on the processing

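No paired analysis was possible because the lists hold merged calls with no values per replicate, and for the same reason no replicate could be left out and no stricter threshold could be set. The count of lamin B1 gains was 8 of 10 under every alternative tried, while the share of all genes with a gain ranged from 38.4% (25 points required) to 60.9% (flank of 500 kb). The count of losses moved with the flank: with 200 kb it was 1 (Sox17, all genes 10.1%) and with 500 kb 2 (Sox17 and Gata6, all genes 8.68%). H3K9me3 losses numbered 1 with 50 kb (Sox4, all genes 11%), 2 with 200 kb (Sox4 and Gata4, 14.9%), 1 with 500 kb (Sox4, 14.9%), 1 with 100 kb around the start site alone (Sox5, 12.3%) and 1 when any change was counted (Sox5, 16%). H3K9me3 gains numbered 4 with 50 kb (29.6%), 6 with 200 kb (41.4%) and 7 with 500 kb (47.8%), where Gata6 was not among them. They numbered 4 with 100 kb around the start site alone (32.8%), 6 when any change was counted (39.7%) and 3 when 25 points were required (27.6%). More Foxa2 sites in the mutants were found for 2 genes with 50 kb (25%), 7 with 500 kb (55.8%) and 2 at a difference of at least 2 sites (11.6%). Fewer were found for 0 genes with 50 kb (15.4%), 2 with 200 kb (22.4%), 2 with 500 kb (23.1%), 0 with wider sites alone (17.2%), 0 at a difference of at least 2 sites (5.12%) and 3 as a share of the list (34.8%). The GATA word was present in 10% of wild-type sites within 300 bases of the centre. The causes were not tested. Outside Sox5 the direction of a Foxa2 count rested on 1 or 2 sites per gene. At Sox5 the mutant minus wild-type difference was 6 sites in the main count. It fell to 1 with sites wider than the median of their list alone and to 1 with 100 kb around the start site alone. With 50 kb and 200 kb on both sides it was 6, and with 500 kb it was 10.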
